A study of Mus musculus with 15 samples.

Results

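Among the iron and heme handling genes, both ferritin subunits, *Fth1* and *Ftl1*, and the heme-degrading enzyme *Hmox1* were higher in CD45hi than in CD45lo brain myeloid cells of chow-fed mice, by 2.20-fold to 3.18-fold in normalized counts. On the western diet *Fth1* and *Hmox1* passed the same test. *Fth1* passed on both diets in every alternative fit of counts, whereas the calls of *Hmox1* and *Ftl1* were lost in several. TPM corrects for transcript length and scales each library to the same total, and was tested by limma with no further normalization. There 0 of the 9 genes passed on the chow diet and only *Fth1* on the western diet. In TPM the median gene was itself lower in CD45hi cells (log2 fold change -0.43 on chow, -0.52 on the western diet). *Fth1*, *Ftl1* and *Hmox1* stood above it on both diets. The iron exporter *Slc40a1*, the transferrin receptor *Tfrc* and the metal transporters *Slc11a1* and *Slc11a2* passed the test of counts on neither diet. Between the diets 0 of the 9 genes were called within either cell fraction, where 0.254% (CD45hi) and 0.0% (CD45lo) of all genes tested were. The set comprises *Hmox1*, *Slc40a1*, *Fth1*, *Ftl1*, *Tfrc*, *Slc11a1*, *Slc11a2*, *Blvrb* and *Blvra*. These were chosen by gene symbol for their place in iron and heme metabolism, with earlier results of these data known. Their share of calls beside that of all genes is therefore a description and not a test of the set. Each of the 9 symbols matched 1 of the 38924 genes in every library, and all 9 passed the filter on low counts, as did 14967 genes in all.

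Cells take up iron bound to transferrin through the transferrin receptor, and metal transporters of the *Slc11* family move it out of endosomes and phagosomes into the cytosol. Iron that is not used is stored in ferritin, a shell built of heavy and light chains, or leaves the cell through ferroportin, the only known cellular iron exporter. Heme taken up with haemoglobin or dead red cells is opened by heme oxygenase into iron, carbon monoxide and biliverdin, which biliverdin reductases turn into bilirubin. Tissue macrophages are known for this recycling, and microglia are among the cells of the brain that store iron.

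The libraries came from wild-type male C57BL/6J mice killed at 12 months of age, which were kept on a chow diet (CD) or were given a western diet (WD) from 2 months of age. CD11b+ brain cells, positive for the myeloid integrin CD11b, were sorted by FACS into a CD45hi and a CD45lo fraction by the level of the leukocyte protein CD45. There were 4 CD45hi and 4 CD45lo libraries from CD-fed mice, and 3 CD45hi and 4 CD45lo libraries from WD-fed mice, all of poly(A) RNA. The sample titles number the libraries of a group without tying them to animals. The names of the deposited files hold numbers that CD45hi and CD45lo libraries share in pairs, but what they number is not stated, so p-values measure the spread between these libraries. C57BL/6 mice carry a loss-of-function allele of *Slc11a1*, so its RNA in this strain does not stand for a working transporter.

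Total expected counts were 11951412 to 17912272 per library, and 3 counts, taken as the smallest measurable value, equalled 0.156 to 0.282 cpm, the count scaled to normalized library size. The CD45 gene *Ptprc* was measured at 778 to 1290 cpm in CD45hi libraries and 356 to 488 cpm in CD45lo libraries, and *Itgam*, which encodes CD11b, at 1508 to 2207 cpm in all 15. The 7 markers of microglia summed to 5556 to 6766 cpm in CD45hi and 11733 to 14995 cpm in CD45lo libraries. Those of border-associated macrophages summed to 830.0 to 2877 cpm against 68.5 to 253 cpm, and those of monocytes to 406 to 827 cpm against 11.4 to 53.2 cpm. The fractions thus differed in the markers of several cell types. On principal component analysis replicate 4 of CD CD45hi cells and replicate 1 of WD CD45hi cells lay apart from the other libraries on the second component, at 93.0 and -134.7 against -4.5 to 21.5 for the other 13. Results that rest on them are also given from a fit without both.

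Hairpins called iron-responsive elements are the means by which iron regulatory proteins act on several of these RNAs. Bound in the 5′ UTR they hold back translation, and bound in the 3′ UTR they protect the RNA from decay. To show which of the 9 RNAs carry one, the main transcript of each gene in GENCODE M21 (build GRCm38, the same as mm10) was searched on the sense strand for CNNNNNCAGTGN, with the 5 bases before the 6-base loop able to pair with the 5 after it, G with T allowed. The searched transcripts of 4 of the 9 genes held a match, and 294 of 21901 protein-coding genes did in any transcript (1.34%). Those of *Hmox1*, *Slc11a1*, *Slc11a2*, *Blvra* and *Blvrb* held none, which says only that these letters are not in that transcript. Other transcripts of the same genes may carry such a hairpin. The matches are printed as 30-base windows, 5′ to 3′, with the loop in capitals. The first 3 lie in the 5′ UTR, in exon 1, at chr19:9982732-9982761 on the plus strand (*Fth1*), chr7:45459778-45459807 on the minus strand (*Ftl1*) and chr1:45925464-45925493 on the minus strand (*Slc40a1*). The 4 of *Tfrc* lie in the 3′ UTR, in exon 19 of 19, on the plus strand of chromosome 16, starting at 32631219, 32631598, 32631663 and 32631710.

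Fth1: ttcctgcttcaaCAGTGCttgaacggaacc

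Ftl1: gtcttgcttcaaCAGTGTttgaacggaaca

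Slc40a1: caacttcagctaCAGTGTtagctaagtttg

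Tfrc site 1: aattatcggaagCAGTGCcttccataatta

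Tfrc site 2: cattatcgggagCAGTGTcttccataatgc

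Tfrc site 3: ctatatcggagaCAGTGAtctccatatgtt

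Tfrc site 4: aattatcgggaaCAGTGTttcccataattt

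Poly(A) RNA-seq measures how much of each RNA is present, not how much of it is translated, so the values below bear on RNA levels alone.

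The first question was how the cell fractions differ within a diet. Counts were normalized by TMM, and edgeR's quasi-likelihood method tested whether the difference between CD45hi and CD45lo cells exceeded 1.5-fold (glmTreat), with the false discovery rate (FDR) taken over all 14967 genes. In CD-fed mice 3 of the 9 genes passed, all higher in CD45hi cells, beside 3.98% of all genes tested. In WD-fed mice 2 of the 9 passed, again higher in CD45hi cells, beside 5.18% of all genes. The median log2 fold change of the 9 was 0.66 in CD-fed and 0.11 in WD-fed mice, beside 0.036 and 0.00 for all genes. When any difference was tested rather than one over 1.5-fold (glmQLFTest), *Hmox1*, *Fth1* and *Ftl1* passed on both diets, 3 of 9 each, beside 8.03% and 9.12% of all genes. In cpm the values of the CD45hi and CD45lo libraries did not overlap for 3 of the 9 genes in CD-fed mice (*Fth1*, *Ftl1*, *Blvrb*) and for 4 in WD-fed mice (*Fth1*, *Ftl1*, *Hmox1*, *Slc40a1*), where 16.5% and 23.4% of all genes did not overlap in either direction.

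**Figure D1:**
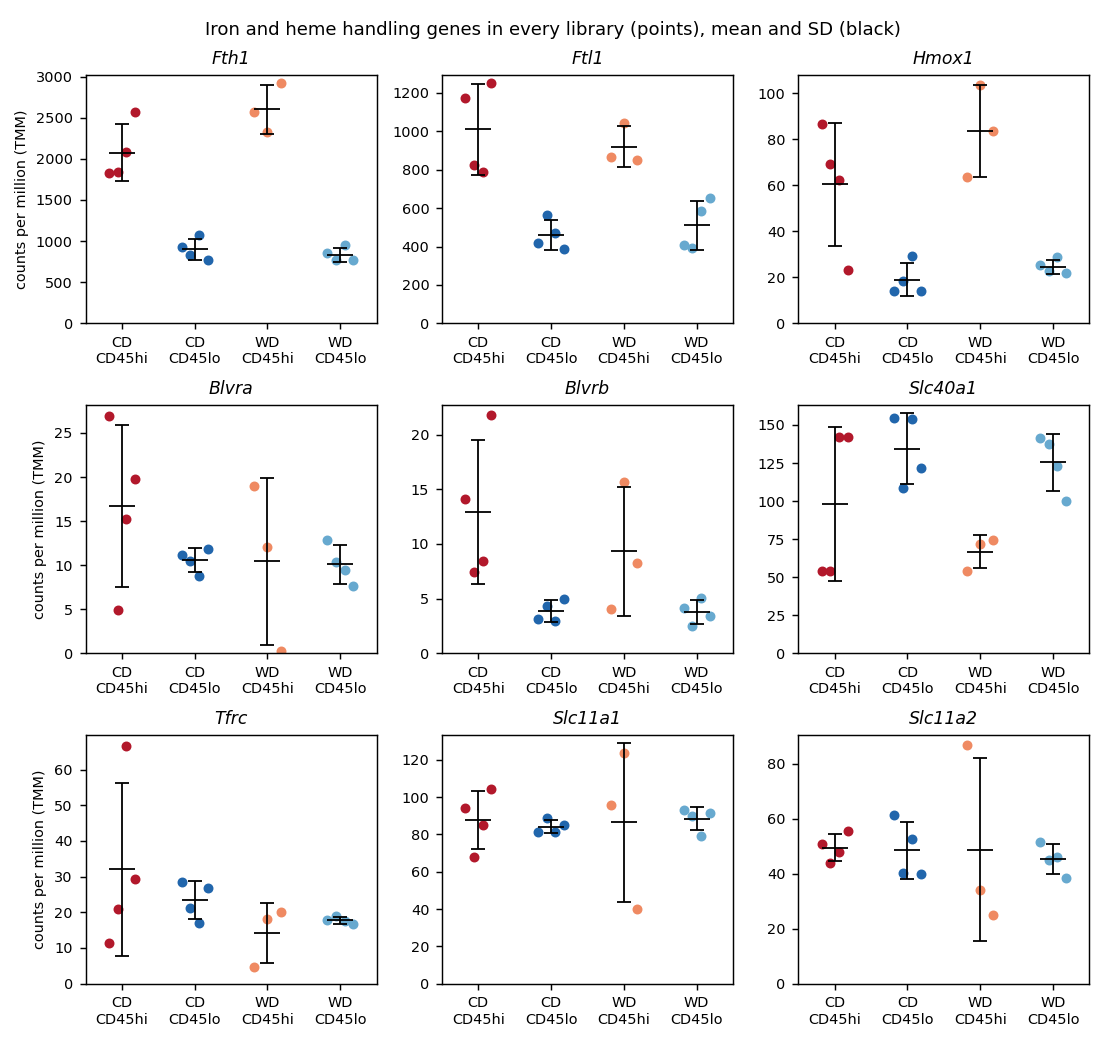
Normalized cpm of the 9 genes (y axis, from 0) in each of the 15 libraries (points), by diet and CD45 fraction (x axis), with the mean and SD of each group in black. The CD45hi points of Fth1 and Ftl1 all lie above the CD45lo points of the same diet, while those of Slc11a1 and Slc11a2 overlap.

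*Fth1* (ENSMUSG00000024661, chromosome 19 of GRCm38 from 9980598 to 9985098) encodes the ferritin heavy chain, the subunit with the ferroxidase activity that oxidises iron for storage. It was measured at 1825, 1837, 2081 and 2566 cpm in CD CD45hi cells and at 929, 830.1, 1069 and 773 cpm in CD CD45lo cells. In WD-fed mice it was 2570.5, 2324 and 2918 cpm in CD45hi cells and 851, 767, 950.1 and 764 cpm in CD45lo cells. Every CD45hi library thus lay above every CD45lo library on both diets. The fold change was 2.31 in CD-fed mice (log2 1.21 ± 0.14 (SE), FDR = 0.00153) and 3.13 in WD-fed mice (log2 1.64 ± 0.14 (SE), FDR = 2.4e-05). In counts, *Fth1* passed in each fit that left out 1 library, with a log2 fold change of 1.09 to 1.30 on the CD and 1.56 to 1.72 on the WD. Without both libraries that lay apart it was 1.09 and 1.65.

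*Ftl1* (ENSMUSG00000050708, chromosome 7 from 45457944 to 45459884) encodes the ferritin light chain, which aids the formation of the mineral core. Its levels were 1172, 826, 789 and 1252 cpm in CD CD45hi and 418, 564, 472 and 385 cpm in CD CD45lo cells. On the WD they were 868, 1041 and 852 cpm in CD45hi and 409, 394, 585 and 652 cpm in CD45lo cells. The fractions did not overlap on either diet, and the gap was narrower on the WD, from 652 to 852 cpm. The fold change was 2.20 on the CD (log2 1.14 ± 0.19 (SE), FDR = 0.0333). On the WD it was 1.81 (log2 0.85 ± 0.21 (SE)), which did not pass at 1.5-fold (FDR = 0.226) but did as any difference (FDR = 0.0127). The CD call was lost when replicate 1 or 4 of CD45hi cells or replicate 1, 3 or 4 of CD45lo cells was left out, with an FDR of up to 0.117, and without both libraries that lay apart (log2 1.02, FDR = 0.103). It was also lost with libraries blocked by the numbers of the titles or of the file names (FDR = 0.0631 and 0.0684), by DESeq2 (FDR = 0.0942) and by limma-voom (FDR = 0.0634).

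Ferritin genes have processed copies, between which RSEM may split reads. Only *Fth-ps2*, with 0 to 343 counts per library against 10084 to 39863 for *Fth1*, and *Ftl2*, with at most 1.46 counts, had any count among the other rows named for ferritin chains. The expected counts of *Fth1* and of *Ftl1* each differed from a whole number by more than 0.005 in 13 of 15 libraries, so some reads of both were shared with other genes.

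Levels of different genes can be compared per transcript length, in TPM, which corrects for transcript length and scales each library to the same total. The heavy chain was among the most abundant RNAs of these cells, at rank 10 to 14 of all genes in CD45hi and 18 to 30 in CD45lo libraries, and the light chain at rank 26 to 41 and 36 to 58. Together both chains made up 0.603% ± 0.063 of all TPM in CD CD45hi (SD, n = 4), 0.386% ± 0.043 in CD CD45lo (SD, n = 4), 0.672% ± 0.066 in WD CD45hi (SD, n = 3) and 0.380% ± 0.035 in WD CD45lo cells (SD, n = 4). The ratio of *Fth1* to *Ftl1* TPM was 1.61 to 2.57 in CD CD45hi, 1.37 to 1.91 in CD CD45lo, 2.10 to 2.96 in WD CD45hi and 1.09 to 1.85 in WD CD45lo libraries. Heavy chain RNA exceeded light chain RNA in all 15 libraries, and the ratios of the fractions overlapped on the CD but not on the WD.

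The size of these differences depended on the scale. In TPM the median gene was lower in CD45hi than in CD45lo cells, by 0.43 on the log2 scale in CD-fed mice (median -0.43) and by 0.52 in WD-fed mice (median -0.52), whereas TMM-normalized counts place it near 0. *Fth1* differed by 0.73 on the log2(TPM + 1) scale in CD-fed mice (limma, FDR = 0.672), which is 1.16 above the median gene, and by 1.09 in WD-fed mice (FDR = 0.0422), which is 1.61 above it. *Ftl1* differed by 0.47 and 0.31 (FDR = 1 on both diets), or 0.91 and 0.83 above the median gene. *Hmox1* differed by 0.99 and 1.02 (FDR = 0.686 and 0.552), or 1.43 and 1.54 above it. Thus the 3 genes stood higher relative to the median gene on both scales, but in TPM itself only *Fth1* in WD-fed mice exceeded 1.5-fold by this test. Of all genes called, 85.2% were higher in CD45hi cells of CD-fed mice in counts and 63.9% in TPM, and 77.4% and 43.3% in WD-fed mice. A single mitochondrial ribosomal RNA, *mt-Rnr2*, took 11.5% to 13.3% of counts in CD45hi and 5.57% to 7.73% in CD45lo libraries. The fit of counts without mitochondrial genes gave 1.22 and 1.65 for *Fth1*.

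**Figure D2:**
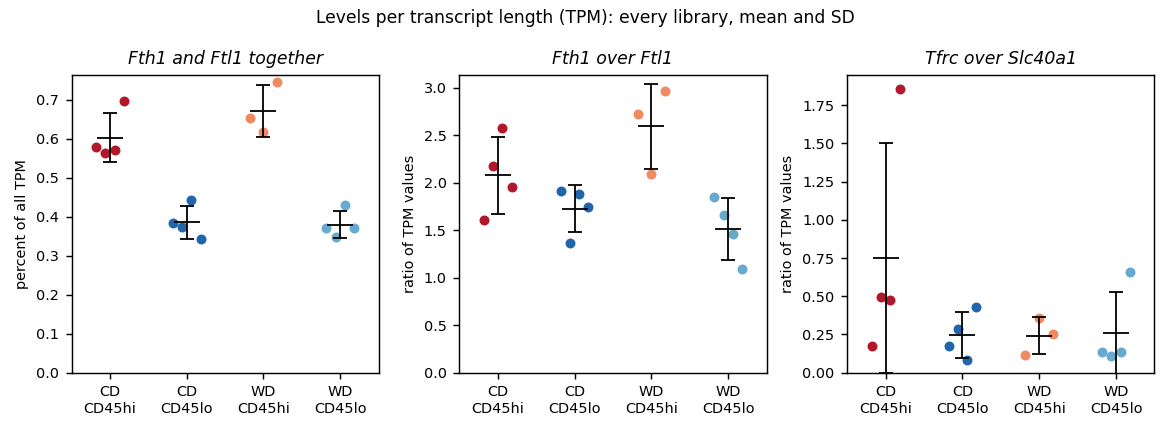
TPM-based values in each library (points), with the mean and SD of each group (black; whiskers end at 0 where the SD exceeds the mean), by diet and CD45 fraction: the percent of all TPM taken by Fth1 and Ftl1, the ratio of Fth1 to Ftl1 and the ratio of Tfrc to Slc40a1. The ferritin share was 0.564% to 0.745% in CD45hi and 0.342% to 0.444% in CD45lo libraries, whereas the Tfrc to Slc40a1 ratios of the groups overlap.

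*Hmox1* (ENSMUSG00000005413, chromosome 8 from 75093621 to 75100589) encodes heme oxygenase 1, the inducible enzyme that opens the heme ring. In CD-fed mice it was measured at 86.4, 69.2, 62.5 and 23.1 cpm in CD45hi and 13.8, 18.5, 29.1 and 14.2 cpm in CD45lo cells. In WD-fed mice it was 63.7, 103.5 and 83.7 cpm in CD45hi and 25.4, 22.7, 28.6 and 21.7 cpm in CD45lo cells. The fractions did not overlap on the WD. On the CD 1 CD45hi library, replicate 4, lay within the range of the CD45lo libraries. The fold change was 3.18 on the CD (log2 1.67 ± 0.37 (SE), FDR = 0.0350) and 3.39 on the WD (log2 1.76 ± 0.39 (SE), FDR = 0.0288). Without both libraries that lay apart these were 1.94 and 1.93 on the log2 scale (FDR = 0.00254 and 0.00416). The CD call was lost on leaving out replicate 1, 2 or 3 of CD45hi or replicate 1, 2 or 4 of CD45lo cells (FDR up to 0.121), and the WD call on leaving out replicate 2 of CD45hi or any 1 of the CD45lo libraries (FDR up to 0.0798). With libraries blocked by the replicate number of the titles the WD call was also lost (FDR = 0.0749), and blocked by the number in the file names both were (FDR = 0.111 and 0.113), as they were by limma-voom (FDR = 0.209 and 0.0937). The CD call was lost as well when the CD libraries were fitted alone (FDR = 0.0966).

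The biliverdin reductases act on the product of heme oxygenase. *Blvrb* (ENSMUSG00000040466, chromosome 7 from 27447978 to 27466144), also known as flavin reductase, was measured at 14.1, 7.45, 8.45 and 21.8 cpm in CD CD45hi and 3.18, 4.36, 2.95 and 4.99 cpm in CD CD45lo cells. In WD-fed mice it was 4.04, 15.6 and 8.28 cpm in CD45hi and 4.13, 2.52, 5.11 and 3.41 cpm in CD45lo cells. Its libraries did not overlap on the CD and overlapped on the WD through replicate 1 of CD45hi cells. The log2 fold change of 1.74 ± 0.58 (SE) on the CD and 1.30 ± 0.61 (SE) on the WD passed neither as a difference over 1.5-fold (FDR = 0.190 and 0.355) nor as any difference (FDR = 0.0806 and 0.200). *Blvra* (ENSMUSG00000001999, chromosome 2 from 127070665 to 127097084), the reductase of the main form of biliverdin, ranged from 4.89 to 26.9 cpm in CD CD45hi cells and from 0.230 to 19.0 cpm in WD CD45hi cells, where the lowest library, replicate 3, held 3 counts. Its CD45lo libraries lay between 7.65 and 12.9 cpm on both diets. The 95% interval of its log2 fold change, -0.83 to 2.15 on the CD and -1.56 to 1.65 on the WD, leaves room for a difference in either direction.

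*Slc40a1* (ENSMUSG00000025993, chromosome 1 from 45908068 to 45926523) encodes ferroportin. It was measured at 54.3, 54.3, 142 and 142 cpm in CD CD45hi and at 154, 108, 154 and 121 cpm in CD CD45lo cells. In WD-fed mice it was 54.3, 71.7 and 74.7 cpm in CD45hi and 142, 137, 123 and 100.1 cpm in CD45lo cells. The CD CD45hi libraries thus fell into a pair at 54.3 cpm, at the lower edge of the WD CD45hi libraries, and a pair at 142 cpm, within the CD45lo range. The log2 fold change between the fractions was -0.46 ± 0.30 (SE) on the CD (FDR = 0.912) and -0.91 ± 0.33 (SE) on the WD (FDR = 0.313), where the fractions did not overlap. As any difference the WD value had an FDR of 0.0948. By limma in TPM the log2 fold change of *Slc40a1* was -1.04 on the CD and -1.42 on the WD (FDR = 0.534 and 0.146). Measured from the median gene, these values were -0.61 and -0.90. In cpm, *Slc40a1* was the 1 gene of the 9 with lower values in every CD45hi than in every CD45lo library of a diet.

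*Tfrc* (ENSMUSG00000022797, chromosome 16 from 32608920 to 32632794), the receptor for iron-loaded transferrin, was measured at 11.3, 20.9, 66.6 and 29.4 cpm in CD CD45hi cells, the widest spread of its groups. It was 28.5, 21.2, 17.0 and 26.8 cpm in CD CD45lo, 4.61, 18.2 and 20.0 cpm in WD CD45hi and 17.9, 18.9, 17.5 and 16.6 cpm in WD CD45lo cells. The log2 fold change was 0.45 ± 0.51 (SE) on the CD and -0.31 ± 0.55 (SE) on the WD, with FDRs of 0.952 and 0.935. Its TPM did not follow its counts in every library: replicate 4 of CD CD45hi cells held 29.4 cpm but 104 TPM, and replicate 3 held 66.6 cpm but 29.3 TPM. RSEM sets TPM by the mix of transcript lengths it estimates in each library. The ratio of *Tfrc* to *Slc40a1* TPM, 0.175 to 1.86 in CD CD45hi cells and 0.0815 to 0.661 in the other 3 groups, therefore carries this uncertainty too.

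Neither metal transporter passed between the fractions in counts. *Slc11a1* (ENSMUSG00000026177, chromosome 1 from 74375195 to 74386062), a transporter of the phagosome membrane, averaged 87.8 ± 15.4 cpm in CD CD45hi (SD, n = 4), 84.2 ± 3.56 cpm in CD CD45lo (SD, n = 4), 86.4 ± 42.5 cpm in WD CD45hi (SD, n = 3) and 88.4 ± 6.27 cpm in WD CD45lo cells (SD, n = 4). The 3 WD CD45hi libraries held 95.8, 123 and 40.0 cpm. The 95% interval of its log2 fold change between the fractions was -0.45 to 0.57 on the CD and -0.59 to 0.52 on the WD. *Slc11a2* (ENSMUSG00000023030, chromosome 15 from 100387898 to 100425072), which carries iron across endosomal and cell membranes, averaged 49.5 ± 4.90, 48.5 ± 10.3, 48.8 ± 33.4 and 45.2 ± 5.42 cpm in the same order of groups. Its WD CD45hi libraries held 86.9, 34.2 and 25.1 cpm. Its intervals were -0.61 to 0.66 and -0.58 to 0.79. Being near 0 in counts, both genes have negative log2 fold changes in TPM, of -0.45 and -0.69 for *Slc11a1* and -0.21 and -0.70 for *Slc11a2* on the CD and the WD, none of which passed. In TPM *Slc11a1* was lower in every CD45hi than in every CD45lo library of the same diet. It was 68.2 to 79.9 against 95.7 to 103.3 TPM on the CD and 37.9 to 91.0 against 94.0 to 131.7 TPM on the WD. The median gene was lower in TPM as well (-0.43 and -0.52). *Slc11a1* lay -0.021 and -0.17 from it, and *Slc11a2* 0.22 and -0.18. The share of all genes whose libraries do not overlap was taken in cpm alone.

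**Figure D3:**
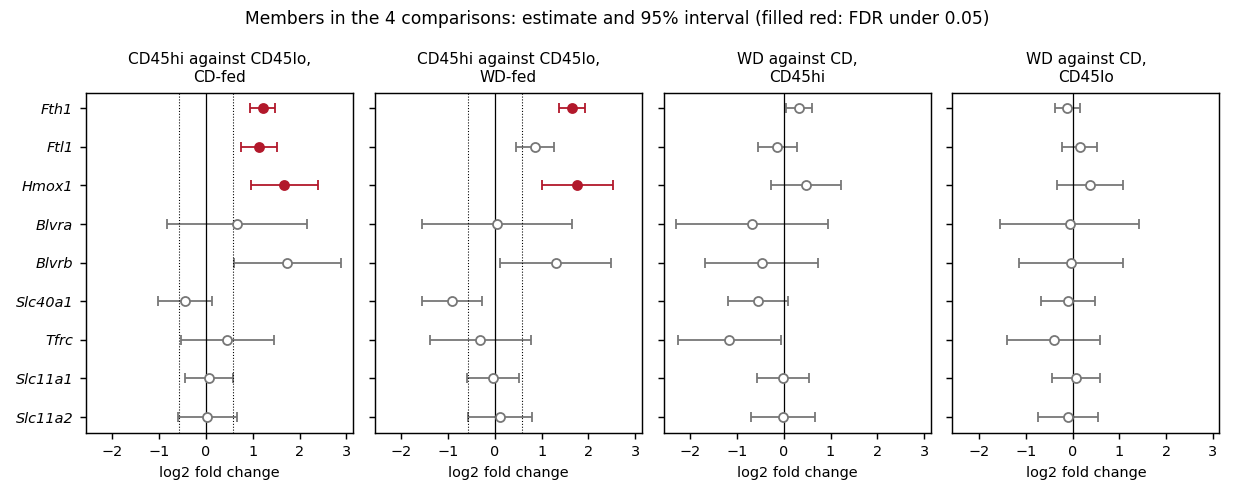
Log2 fold change (x axis) of the 9 genes (y axis) in 4 comparisons, with an approximate 95% interval made from the SE by the normal distribution. Filled red points have an FDR under 0.05 in the test of that comparison, and dotted lines mark 1.5-fold where it was the threshold. Red points are Fth1, Ftl1 and Hmox1 in CD-fed and Fth1 and Hmox1 in WD-fed mice, and no point is red between the diets.

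By level per length, the order of mean TPM began with *Fth1* and *Ftl1* in all 4 groups. In CD CD45lo cells *Fth1* averaged 2439 TPM and *Ftl1* 1422 TPM, followed by *Slc11a1* (101 TPM), *Slc40a1* (79.3 TPM), *Hmox1* (27.2 TPM), *Slc11a2* (26.1 TPM), *Blvra* (19.2 TPM), *Tfrc* (18.3 TPM) and *Blvrb* (10.6 TPM). *Slc11a1* and *Slc40a1* did not overlap there, whereas the libraries of *Hmox1*, *Slc11a2* and *Tfrc* overlapped one another. In WD CD45hi cells *Hmox1* (78.5 ± 21.3 TPM, SD, n = 3) came next and ranged across *Slc11a1* (72.5 ± 30.0 TPM, SD, n = 3), with *Slc40a1* at 27.1 ± 4.57 TPM (SD, n = 3).

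The second question was whether the WD changed these genes within a fraction. In CD45hi cells 0 of the 9 genes passed edgeR's test for any difference (FDR 0.254 to 0.986), beside 0.254% of all genes. DESeq2, which called 1030 genes in all, and limma-voom called 0 of the 9 as well. In edgeR's test 1 of the 9 had an unadjusted p under 0.05, as did 2628 of the 14967 genes. That gene was *Fth1*, which averaged 2604 ± 298 cpm on the WD (SD, n = 3) and 2077 ± 347 cpm on the CD (SD, n = 4). Its log2 fold change was 0.33 with a 95% interval of 0.043 to 0.61 (FDR = 0.254), and replicate 4 of the CD group lay above the lowest WD library. The largest log2 fold change among the 9 was that of *Tfrc*, with means of 14.3 ± 8.41 cpm on the WD (SD, n = 3) and 32.1 ± 24.2 cpm on the CD (SD, n = 4), or -1.17 ± 0.56 (SE) (FDR = 0.294). It was -0.52 when replicate 3 of the CD group, at 66.6 cpm, was left out. *Slc40a1* averaged 66.9 ± 11.0 and 98.1 ± 50.6 cpm (log2 -0.55 ± 0.32 (SE), FDR = 0.391), and *Hmox1* 83.6 ± 19.9 and 60.3 ± 26.8 cpm (log2 0.47 ± 0.38 (SE), FDR = 0.558).

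In CD45lo cells 0 of the 9 genes passed between the diets, each with an FDR of 1, beside 0.0% of all genes. At an unadjusted p under 0.05 it was 0 of the 9 and 123 of all genes. DESeq2 called 4 genes, none of them among the 9, and limma-voom none of the 9. *Fth1* averaged 833 ± 87.8 cpm on the WD and 900.1 ± 129.5 cpm on the CD (SD, n = 4 each), and the 95% interval of its log2 fold change was -0.37 to 0.15. That of *Ftl1* was -0.23 to 0.52, that of *Hmox1* -0.32 to 1.08 and that of *Slc40a1* -0.68 to 0.48. The intervals of *Tfrc* (-1.39 to 0.59), *Blvrb* (-1.14 to 1.08) and *Blvra* (-1.55 to 1.42) were wider and leave room for a difference in either direction. Within each fraction the libraries of the diets overlapped for all 9 genes, where 5.77% of all genes in CD45hi and 2.42% in CD45lo cells did not overlap.

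Whether the difference between the fractions itself depended on diet was tested as an interaction. No member passed, and FDRs ran from 0.471 to 0.985, beside 0.00668% of all genes called. *Fth1* had the lowest, with an estimate of 0.44 ± 0.20 (SE) on the log2 scale (FDR = 0.471), and was the 1 gene of the 9 with an unadjusted p under 0.05, as 1515 of all genes had. DESeq2, which called 188 genes in all, and limma-voom, which called 0 in all, called 0 of the 9. The call of *Ftl1* on the CD and not on the WD is thus not shown to be a difference between the diets (interaction -0.28 ± 0.28 (SE), FDR = 0.794). All these comparisons draw on the same 15 libraries, each group serving in several.

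Beyond the 9 genes, 57 further genes of iron and heme metabolism were listed, of which 46 passed the filter on low counts. Of these 46, 1 was higher and 1 lower in CD45hi cells on the CD, and 2 were higher and 1 lower on the WD, shares near the 3.98% and 5.18% of all genes tested. Their median log2 fold change was -0.09 and -0.16, beside 0.036 and 0.00 for all genes, and 0 of 46 passed between the diets in either fraction or in the interaction. The *Hamp* gene for the iron hormone hepcidin and the ferroxidases *Heph* and *Hephl1* were among the 11 genes that did not pass the filter.

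Of the 3 genes of haemoglobin and heme uptake that were tested, *Cd163* passed on both diets. *Cd163*, the macrophage receptor for haemoglobin bound to haptoglobin, was measured at 135 to 184 cpm in CD CD45hi and 8.24 to 13.3 cpm in CD CD45lo cells. In WD-fed mice it was 16.5, 169 and 259 cpm in CD45hi and 6.03 to 14.4 cpm in CD45lo cells. It was 14.5-fold higher on the CD (log2 3.85 ± 0.56 (SE), FDR = 5.04e-04) and 15.6-fold higher on the WD (log2 3.97 ± 0.58 (SE), FDR = 5.17e-04). The WD call was lost by limma-voom (log2 3.45, FDR = 0.0832) and in TPM (log2 2.55, FDR = 0.0746). *Cd163* is also one of the 7 markers of border-associated macrophages listed here, all of which were higher in CD45hi cells on both diets. *Hp*, which encodes haptoglobin, averaged 33.5 ± 26.7 cpm in CD CD45hi (SD, n = 4) and 4.72 ± 4.41 cpm in CD CD45lo cells (SD, n = 4) but overlapped between the fractions and did not pass (FDR = 0.201 on the CD, 0.193 on the WD).

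Among transport genes, *Cp*, the ferroxidase ceruloplasmin that works with ferroportin, was 57.8 to 114 cpm in CD CD45hi and 17.7 to 39.7 cpm in CD CD45lo cells (log2 1.55 ± 0.40 (SE), FDR = 0.0832). In WD-fed mice it was 49.4, 179.8 and 101 cpm against 13 to 32.0 cpm and passed (log2 2.22 ± 0.42 (SE), FDR = 0.00961). The WD call of *Cp* was lost without replicate 2 of CD45hi cells (FDR = 0.0591), by limma-voom (FDR = 0.0529), blocked by the number in the file names (FDR = 0.0629) and in TPM (FDR = 0.127). *Slc46a1*, a proton-coupled folate transporter also described as a heme carrier, was lower in CD45hi cells of CD-fed mice, at 4.12 to 11.3 cpm against 32.4 to 36.8 cpm (log2 -2.04 ± 0.46 (SE), FDR = 0.0313). This call was lost on leaving out replicate 2, 3 or 4 of CD45hi or any 1 of the CD45lo libraries of CD-fed mice (FDR up to 0.0788), with both blocks (FDR = 0.0547 and 0.0659) and in TPM (FDR = 0.0999). On the WD it was -1.41 ± 0.49 (SE) (FDR = 0.193). *Abcg2*, an efflux pump that exports porphyrins and heme among other compounds, was lower in CD45hi cells of WD-fed mice, at 8.28 to 16.6 cpm against 30.5 to 63.5 cpm (log2 -1.90 ± 0.45 (SE), FDR = 0.0416). This call was lost without both libraries that lay apart (log2 -1.65, FDR = 0.0821), in TPM (FDR = 0.233), by limma-voom (FDR = 0.144), with the WD libraries fitted alone (FDR = 0.0545) and with both blocks (FDR = 0.0555 and 0.170). It was also lost on leaving out replicate 1 or 3 of WD CD45hi cells, replicate 1, 2 or 3 of WD CD45lo cells or any 1 of the CD CD45lo libraries (FDR up to 0.116). On the CD it was -0.78 ± 0.40 (SE) (FDR = 0.631).

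Genes with the largest log2 fold changes that did not pass were *Steap4*, *Hp*, *Lcn2* and *Urod*. *Lcn2*, which binds iron-carrying siderophores and is abundant in neutrophils, was 275, 360.3, 62.9 and 257 cpm in CD CD45hi and 35.1, 111, 11.5 and 57.3 cpm in CD CD45lo cells (FDR = 0.168). *Steap4*, a metalloreductase, had 0 counts in all 4 WD CD45lo libraries. In WD CD45hi cells it was at 34.8 cpm in replicate 2, 0.0941 cpm in replicate 1 and 0 in replicate 3, so that its mean there was at least 57.3-fold higher than 3 counts per library, on the strength of 1 library. The 9 genes of heme synthesis had a median log2 fold change of -0.56 on the CD and -0.54 on the WD between the fractions, with none passing. *Urod*, one of them, was 3.02 to 4.98 cpm in WD CD45hi and 5.11 to 20.5 cpm in WD CD45lo cells (FDR = 0.165).

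**Figure D4:**
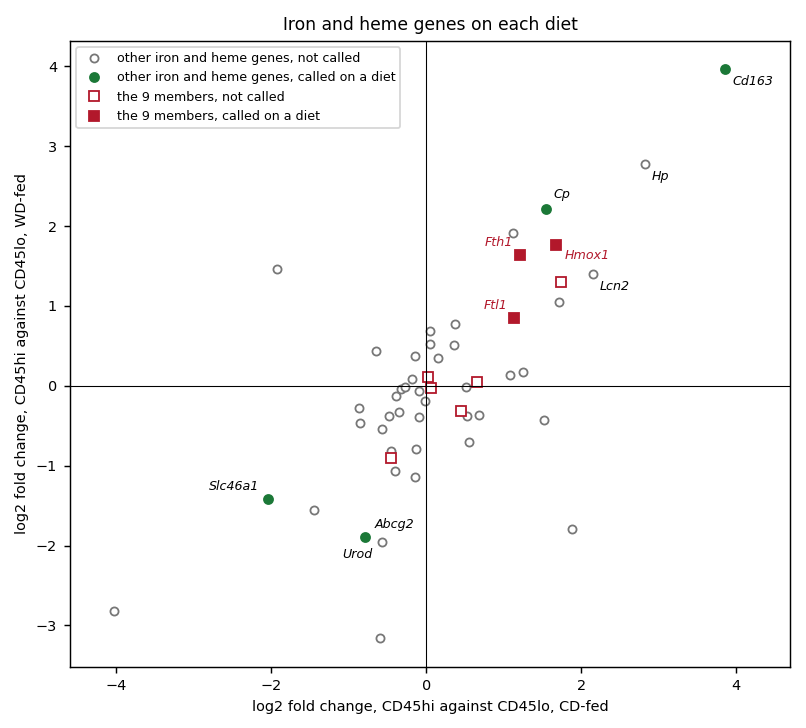
Log2 fold change of CD45hi against CD45lo cells in CD-fed (x axis) and WD-fed mice (y axis) for the 9 genes (squares) and 45 of the 46 other iron and heme genes tested (circles); filled symbols passed on at least 1 diet. Steap4, with 0 counts in one group, is left out. Cd163 lies farthest to the upper right, near 3.85 and 3.97, and Slc46a1 and Abcg2 are the filled symbols below 0 on both axes.

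Markers of several cell types moved with the fractions in which ferritin and *Hmox1* RNA was higher. On the CD, 7 of 7 markers of border-associated macrophages, 5 of 6 of monocytes and 4 of 8 of neutrophils were higher in CD45hi cells and 7 of 7 of microglia lower. On the WD the counts were 7, 5 and 4 higher, and 4 of 7 markers of microglia lower. The neutrophil markers summed to 1184 to 3631 cpm in CD45hi and 631 to 1294 cpm in CD45lo libraries. None of the markers in these 4 lists was at 0 in all libraries of a group. Red cell markers, of which 5 of 7 passed the filter, summed to 13 to 132 cpm in CD45hi and 9.0 to 128 cpm in CD45lo libraries, and 0 of 5 passed on either diet. In bulk samples fewer cells of a type and less RNA per cell cannot be told apart, and the part of these cell types in the differences of *Fth1*, *Ftl1* and *Hmox1* was not tested. In replicate 1 of WD CD45hi cells the markers of border-associated macrophages summed to 830.0 cpm, against 2020.3 and 2877 cpm in the other 2. There *Fth1* was 2570.5 cpm, between the values of the other 2, and *Hmox1* was 63.7 cpm, the lowest of the 3. In replicate 4 of CD CD45hi cells these markers summed to 2200.1 cpm, and *Hmox1* was 23.1 cpm, the lowest of all CD45hi libraries. Whether either gene follows these markers was not tested, and single libraries cannot show it.

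The likeness of other genes to the 3 genes that passed was measured across all 15 libraries as the root mean square difference of log2 cpm, each gene centred on its mean, over 8253 genes with a mean of at least 10 cpm. Nearest to *Fth1* were *H2-D1*, an MHC class I gene, and the ribosomal protein genes *Rpl17* and *Fau*, with 0.148, 0.158 and 0.180. Nearest to *Ftl1* were *Rps23-ps*, *Gm15427* and *Rpl19*, at 0.163, 0.167 and 0.169. *Hmox1* had less close neighbours, with *Sdc4* (syndecan 4), *B4galt5* and *Sept11* at 0.397, 0.422 and 0.453. These distances describe the 15 libraries and share their depth and normalization.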

How the data were processed

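The authors sorted CD11b+ brain cells by CD45 level, made poly(A)-selected libraries, and estimated counts with RSEM on mm10. The submitters' processing notes name bcl2fastq 2.18.0.12 and RSEM 1.2.12. The deposited expected counts (estimated counts, not normalized, which need not be whole) and TPM (scaled by transcript length and to a fixed total) list 38924 genes. The release of the annotation and the use of strand in counting are not given in the sources used here.

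The 9 genes and all lists were chosen with earlier results of these data known. Libraries were grouped by their titles. Expected counts were rounded. A gene was kept if 2 or more of the 15 libraries reached 1 cpm, which held for 14967. After TMM normalization, edgeR 4.0.16 (R 4.3.3; quasi-likelihood method, earlier form) fitted all libraries with 4 groups. CD45hi and CD45lo cells were compared by glmTreat at 1.5-fold, diets and the interaction by glmQLFTest, and genes with an FDR (Benjamini-Hochberg) under 0.05 were called. The SE is the log2 fold change over the square root of F. No group held identical libraries. A floor of 3 counts covers counting error only. The computation was tested on simulated counts. Alternatives were DESeq2 1.42.0, limma-voom (limma 3.58.1), other scalings, filters and thresholds, replicate blocks, and the omission of 1 library at a time. After seeing the data, 3 more were added, namely leaving out mitochondrial genes, leaving out 2 libraries that lay apart, and limma on log2(TPM + 1).

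Besides the 9 genes, those of the 57 further iron and heme genes that passed in any comparison were named, with the 3 largest changes not passing for each comparison of fractions, among genes that averaged 10 cpm or more in their higher group. The markers of lymphocytes (1 of 4 tested higher in CD45hi cells on the CD, 2 on the WD), dendritic cells (1 of 4 on each diet), neurons (0 of 3), astrocytes (1 of 3 lower on the CD, 0 on the WD), oligodendrocytes (0 of 4 on the CD, 1 higher on the WD) and endothelial cells (0 of 3) were also listed. Sequences and coordinates come from GENCODE M21.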

Additional observations from a re-analysis of the deposited data

Results flagged for a closer look

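1 of 50 groups of 4 libraries, tested over the 9 genes and the other iron and heme genes named, held a library far from the rest, where chance alone gives about 1 in 20. It was *Steap4* in CD CD45lo cells, at 2.75 cpm in replicate 2 against 0.170 cpm in the next library and 0 in the other 2. No group of 4 libraries held such a library for any of the 9 genes. The WD CD45hi group, of 3 libraries, was not tested.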

How the results depend on the processing

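In counts *Fth1* passed on both diets under every alternative run. *Hmox1* and *Ftl1* did not. The number of the 9 genes called on the CD was 1 with limma-voom and with a replicate block by the numbers in the file names, and 0 in TPM. On the WD it was 1 with limma-voom, with either replicate block and in TPM. Leaving out 1 library gave 1 to 3 on the CD and 1 to 2 on the WD. No alternative called any of the 9 between the diets or in the interaction.

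Of all genes, 1202 (CD) and 1365 (WD) differed between the fractions with no fold threshold, 396 on the CD in TPM, 353 on the WD with the block by file-name number, and 412 to 705 (CD) and 513 to 920 (WD) on leaving out 1 library, where without replicate 1 or 3 of WD CD45lo cells 515 and 513 remained past the threshold. Between diets in CD45hi cells 38 genes were called, but 1 at 1.5-fold, 1030 by DESeq2, 0 with the compared groups alone, 252 with edgeR's later method, 2 with the block by titles, 290 without both libraries that lay apart, 95 in TPM, and 1 to 286 on leaving out 1 library (1 without replicate 2 of WD CD45lo cells, 286 without replicate 2 of WD CD45hi cells). In CD45lo cells DESeq2 called 4. In the interaction DESeq2 called 188, limma-voom, edgeR's later method and both replicate blocks 0, the fit without both libraries 3, and leaving out 1 library 0 to 6.

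Some log2 fold changes, none of which passed, changed sign. Between the fractions on the CD, *Slc11a1* was -0.030 and *Slc11a2* -0.030 without both libraries that lay apart, and -0.45 and -0.21 in TPM. On the WD *Tfrc* was 0.11 without both libraries, *Slc11a1* 0.013 by DESeq2 and 0.012 with its size factors, *Slc11a2* -0.17 by limma-voom, -0.054 and -0.036 with the replicate blocks by titles and by file-name number, -0.61 without both libraries and -0.70 in TPM, and *Blvra* -1.38, -0.25, -0.72, -0.71 and -1.26 in the same fits, and -0.015 with edgeR's later method. Between diets in CD45hi cells *Ftl1* was 0.025 and *Blvrb* 0.26 without both libraries, and *Slc11a2* 0.0017 by DESeq2 and 0.0023 with its size factors. In CD45lo cells *Slc11a2* was 0.034 in TPM and *Blvrb* 0.042 with the block by titles. On leaving out 1 library the values that changed sign ran, on the CD, from -0.19 to 0.74 (*Tfrc*), -0.032 to 0.17 (*Slc11a1*) and -0.071 to 0.16 (*Slc11a2*), on the WD from -0.63 to 0.11, -0.38 to 0.31 and -0.61 to 0.42 for the same genes, from -0.71 to 0.62 (*Blvra*) and from -0.19 to 1.84 (*Lcn2*), between diets in CD45hi cells from -0.37 to 0.32 (*Slc11a1*) and -0.74 to 0.29 (*Slc11a2*), and in CD45lo cells from -0.18 to 0.030 (*Slc11a2*), -0.20 to 0.12 (*Blvrb*) and -0.21 to 0.046 (*Blvra*). The cause was not tested.

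Deviations from the group means of libraries with the same number correlated at -0.022 to 0.069 (titles) and 0.0 to 0.069 (file names) over genes. On the CD those with the same number ran from 0.010 to 0.069 and the others from -0.052 to 0.046. On the WD they ran from -0.022 to -0.004 against -0.017 to 0.013 by titles, and from 0.0 to 0.013 against -0.022 to 0.012 by file names. The main fit did not pair libraries, and these values do not settle whether a number stands for 1 animal. Results of fits with both blocks are given above. The numbers of titles and file names name the same pairs on the CD and different ones on the WD. *Blvra* held 3 counts in 1 library and 59 to 410 in the others, and whether depth sets its spread was not tested. The lost calls of *Hmox1*, *Ftl1*, *Cd163*, *Cp*, *Slc46a1* and *Abcg2* are given beside their values above.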
